A study of Rattus norvegicus with 10 samples.

Results

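The cytosolic ribosomal proteins are the protein subunits of the ribosome that works outside mitochondria. Their genes were taken as all genes of the authors' annotated table whose symbol starts with Rps or Rpl followed by a number or by p, without the Rps6k kinases and without symbols of pseudogenes. This rule used names and no measured value, and it found 110 gene IDs with 85 symbols among the 16129 genes of that table. Of the 110, 45 carried a small subunit symbol (Rps) and 65 a large subunit symbol (Rpl). Rps19bp1, a small nucleolar protein that binds Rps19, came in by its name and is not a subunit of the ribosome, and Rpl7l1 takes part in building the large subunit. Rpsa encodes a subunit but falls outside the rule, as does Rack1, a scaffold bound to the small subunit, and both are given separately.

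RNA came from primary cultures of Sprague-Dawley rats, prepared from the cortices of pups at P1 to P3 by shaking progenitors off mixed glia. Oligodendrocytes (OLs) were taken 5 days after transfection with 30 nM of a miR-145-5p mimic (OL miR-145), of the miR-145-5p mimic and a miR-219 mimic (OL miR-145+miR-219), or of a scrambled mimic (OL miR-ctl). Oligodendrocyte progenitor cells (OPCs) were taken 24 h after transfection with 30 nM of a miR-145-5p inhibitor (OPC anti-miR-145) or a scrambled inhibitor (OPC anti-miR-ctl). Each of the 5 groups had 2 libraries. One tag of the OL miR-145 libraries also names miR-219, while their titles name miR-145 alone. The sample protocol and the study's results describe transfected mimics for the sequenced OLs, while a paragraph of its methods names lentiviral transduction for RNA sequencing. The study defines replicates of primary cultures as cultures from single animals, in words that name mice. The labels of these rat libraries do not say whether a pair came from separate cultures, so p-values measure the spread between libraries, which may in part be technical.

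A cytosolic ribosome holds a small subunit, which reads the mRNA, and a large subunit, which joins the amino acids. Cells make the subunit proteins in nearly equal amounts, and growing cells devote much of their mRNA to them. Most of these mRNAs start with a C followed by a run of pyrimidines, the 5′ terminal oligopyrimidine (TOP) tract, through which mTORC1 and Larp1 set their translation. Myelinating OLs make large amounts of membrane and protein, and OPCs divide.

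The start of the transcript is therefore shown for members whose values, or those of a paralog, are described below. Each window runs from 15 bases before the annotated start to the 15 bases that begin with it. RefSeq start sites on GRCr8 were matched by symbol and were found for 64 of the 85 symbols. Capitals mark an uninterrupted run of C and T that opens with C at the annotated start and holds at least 4 further pyrimidines. Rplp0, Rpl10, Rpl22 and Rps27 are shown as subunits with such a run, Rps2 as the member with the smallest p in OPCs, and Rpl22l1, Rpl7l1 and Rps19bp1 as relatives or partners of subunits that have no such run at this position.
Rplp0: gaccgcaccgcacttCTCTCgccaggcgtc
Rpl10: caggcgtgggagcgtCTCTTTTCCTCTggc
Rpl22: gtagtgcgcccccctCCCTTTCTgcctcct
Rps27: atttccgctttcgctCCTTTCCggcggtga
Rps2: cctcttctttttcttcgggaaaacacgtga
Rpl22l1: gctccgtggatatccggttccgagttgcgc
Rpl7l1: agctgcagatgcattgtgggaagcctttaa
Rps19bp1: cagcgtgtgggcggggcttggcagcatgtc

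On GRCr8 these windows lie at chr12:46718376-46718405 (minus strand) for Rplp0, chrX:157205835-157205864 (plus) for Rpl10, chr5:168117946-168117975 (plus) for Rpl22 and chr2:177964592-177964621 (minus) for Rps27. Rps2 lies at chr10:14251833-14251862 (plus), Rpl22l1 at chr2:113683181-113683210 (plus), Rpl7l1 at chr9:21695703-21695732 (plus) and Rps19bp1 at chr7:113693009-113693038 (minus). A run as defined above opened 21 of the 65 annotated member starts, or 32.3%, against 2.63% of all 33469 annotated starts. When the C and its 4 pyrimidines were allowed to begin up to 5 bases on either side, 58.5% of member starts and 17.0% of all starts held one. The window of Rps2 has its pyrimidines just before the annotated start, which shows how the strict count depends on the exact annotated base.

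In the 300 bases from 250 before the start to 50 after it, searched on both strands, CCGGAAG, a form of the site bound by Ets factors, occurred in 30.8% of member promoters and 8.75% of all promoters. The palindrome CTCGCGAG occurred in 12.3% and 0.723%, and GGGCGG, the GC box, in 55.4% and 33.1%. GCCATNTT, a form of the YY1 site, was in 15.4% and 6.96%. TATAAA was in 12.3% of member promoters and 14.2% of all promoters. No motif contains another, matches of different motifs may overlap in part, and a match describes letters only. The agent given to the cells, rno-miR-145-5p, is shown with its seed, bases 2 to 8, in capitals.
rno-miR-145-5p: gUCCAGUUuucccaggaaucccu

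Levels are given as CPM, counts scaled to a common library total after TMM normalization over the 10 libraries. They are not divided by transcript length and so do not rank genes against each other. Library totals ran from 33505706 to 42684206 counts. Myelin and other OL markers (8 of 8 found) summed to 15478 to 34050 CPM in OL libraries and 1100 to 1312 CPM in OPC libraries. The 5 OPC markers found of 6 summed to 1449 to 2103 CPM in OLs and 3612 to 4652 CPM in OPCs. The 10 astrocyte markers summed to 5915 to 6941 CPM in OL miR-ctl, 9888 to 14517 CPM in OL miR-145 and 772 to 794 CPM in OPC anti-miR-ctl. The 14 microglial markers summed to 560 to 789 CPM in OL miR-ctl, 598 to 1352 CPM in OL miR-145, 1089 to 1152 CPM in OPC anti-miR-ctl and 1116 to 1374 CPM in OPC anti-miR-145. In bulk RNA, fewer cells of a type and less RNA per cell cannot be told apart, and the part of these other cells in the results below was not tested.

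Ribosomal protein genes took a larger share of the counts in OPCs than in OLs, in every library. In OL miR-ctl they held 2.50% and 2.51% of the library's counts, in OL miR-145 2.29% and 2.09%, and in OL miR-145+miR-219 2.31% and 2.32%. In OPC anti-miR-ctl they held 4.18% and 4.45%, and in OPC anti-miR-145 5.78% and 4.86%. The ranges did not overlap between cell stages, between OL miR-145 and OL miR-ctl, or between OPC anti-miR-145 and OPC anti-miR-ctl, while the OL miR-145 and OL miR-145+miR-219 ranges lay next to each other. The group means were 2.51% ± 0.00676 (SD, n = 2) in OL miR-ctl, 2.19% ± 0.144 in OL miR-145, 2.32% ± 0.00891 in OL miR-145+miR-219, 4.31% ± 0.188 in OPC anti-miR-ctl and 5.32% ± 0.648 in OPC anti-miR-145. The share was given no test, since an exact two-sided permutation of 1 group of 2 libraries against another cannot give a p below 0.333.

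**Figure D1:**
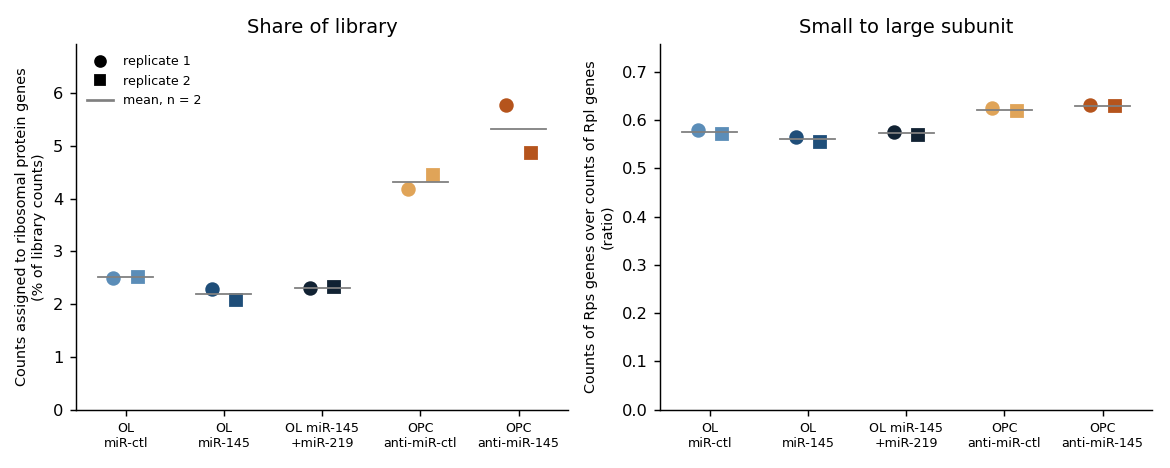
The left panel plots the counts assigned to the 110 ribosomal protein genes as percent of each library's counts, and the right panel the counts of Rps genes divided by those of Rpl genes, for 10 libraries in 5 groups (circles and squares, replicates 1 and 2; grey lines, means of 2). OL libraries lie between 2.09% and 2.51% and OPC libraries between 4.18% and 5.78%, and the ratio lies between 0.555 and 0.579 in OLs and between 0.619 and 0.631 in OPCs.

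Both subunits contributed. The ratio of Rps counts to Rpl counts was 0.555 to 0.579 in the 6 OL libraries and 0.619 to 0.631 in the 4 OPC libraries, so the 2 stages did not overlap. The mRNAs of the mitochondrial genome, which are translated by a separate ribosome, took 3.19% to 3.72% of OL counts, 1.50% and 1.55% in OPC anti-miR-ctl, and 1.82% and 2.29% in OPC anti-miR-145.

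The members fell into 2 ranges of level. In 100 of them the mean over the 10 libraries was at least 22.6 CPM, and in the other 10 it was at most 3.48 CPM. The low members included Rpl10l, Rpl30l1, Rpl39l, Rps4y2, 1 gene ID each of Rpl39, Rps15al4 and Rps18l1, and 2 of Rps29, which are paralogs or additional gene IDs of a symbol. Together they supplied at most 0.0418% of member counts in any library. The division at 10 CPM was made after the levels were seen.

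More than 1 gene ID was found for 19 symbols, 44 IDs in all, and reads can be divided between such IDs. Rps20, in the head of the small subunit, showed this most plainly. Its ID ENSRNOG00000030345 had 29.6 and 31.5 CPM in OL miR-ctl, 13.5 and 8.74 CPM in OL miR-145, 18.9 and 3.96 CPM in OL miR-145+miR-219, 45.8 and 67.2 CPM in OPC anti-miR-ctl, and 88.4 and 28.9 CPM in OPC anti-miR-145. This ID varied more than 3-fold between replicates of OPC anti-miR-145. Summed over its 3 IDs, Rps20 had 327 and 333 CPM in OL miR-ctl, 313 and 276 CPM in OL miR-145, and 324 and 321 CPM in OL miR-145+miR-219. Rpl30 moved between IDs as well, since its ID ENSRNOG00000005975 had 69.2 and 98.3 CPM in OL miR-ctl while the sum over both IDs was 171 and 184 CPM.

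Control OLs and control OPCs differed most. The comparison of OL miR-ctl with OPC anti-miR-ctl asks how the members differ between maturing cells and progenitors, and cell stage, control oligonucleotide and time after transfection cannot be told apart in it. Of 108 members tested, 100 fell in OLs and none rose (edgeR's quasi-likelihood test, Benjamini-Hochberg adjusted p under 0.05), where 28.7% of the 15721 genes tested were called lower, 28.8% higher and 57.5% in either direction. No member was higher at an unadjusted p under 0.05, and DESeq2 called 99 lower and none higher. Without either OPC anti-miR-ctl library the calls over all genes went from 9042 to 5071 (replicate 1) or 5016 (replicate 2), and those among members to 86 or 71. Their median log2 fold change was -0.64, with an interquartile range from -0.80 to -0.55, against 0.01 over all genes tested. The median was -0.68 for small subunit and -0.63 for large subunit symbols. With library totals alone as the scale, all genes moved to a median of -0.12 and the members to -0.77.

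**Figure D2:**
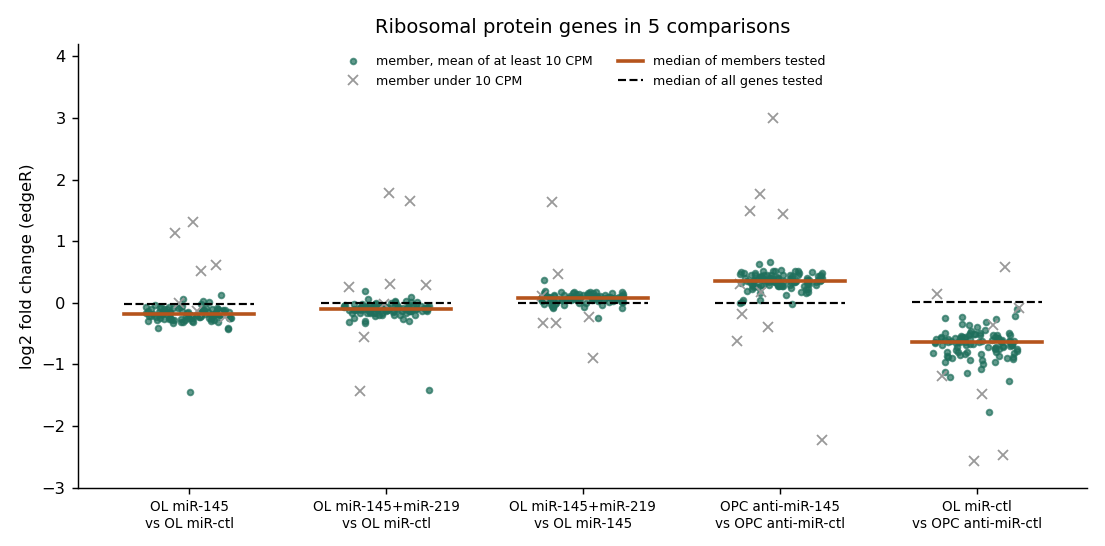
Each point is the edgeR log2 fold change of a ribosomal protein gene in 1 of 5 comparisons (crosses, members with a mean under 10 CPM); orange lines are the members' medians and dashed lines the medians of all genes tested. The members' medians are -0.18, -0.09, 0.08, 0.36 and -0.64 from left to right, beside medians of all genes between -0.01 and 0.01.

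Rps27l, a paralog of Rps27 that p53 is known to induce, had the smallest p. It had 61.0 and 67.8 CPM in OL miR-ctl against 208 and 229 CPM in OPC anti-miR-ctl. The OL libraries were far below the OPC libraries, and the log2 fold change was -1.78 (SE 0.10, adjusted p 0.000146). The paralog it resembles, Rps27, had 150 and 166 CPM in OL miR-ctl and 219 and 245 CPM in OPC anti-miR-ctl. The difference between the responses of the paralogs was not tested.

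Among the next smallest p values were those of other genes with small subunit symbols and of Rpl10. Rps19l2 is named as a relative of Rps19, which is needed to mature the small subunit and is mutated in Diamond-Blackfan anaemia, and Rps19 itself was not analysed here. The Rps19l2 ID ENSRNOG00000048199 had 262 and 253 CPM in OLs and 526 and 554 CPM in OPCs (log2 fold change -1.08, SE 0.08, adjusted p 0.000332). The ID ENSRNOG00000037897 fell by 1.27 on the log2 scale. Rps4x had 578 and 547 CPM in OLs and 1050 and 1130 CPM in OPCs, a log2 fold change of -0.97. Rpl10, which helps shape the catalytic centre, had 411 and 432 CPM against 745 and 774 CPM, a log2 fold change of -0.86. In each of these genes both OL libraries lay below both OPC libraries.

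Members chosen for their roles fell as well. Rps6, the target of the S6 kinases, fell by 0.83 on the log2 scale at the ID ENSRNOG00000049025, from 595 and 647 CPM in OPCs to 333 and 370 CPM in OLs. Its other ID fell by 0.57. The proteins of the stalk, a flexible arm of the large subunit that engages elongation factors, fell by 0.48 (Rplp0), 0.67 (Rplp1) and 0.80 (Rplp2). Rpl5 and Rpl11, which bind Mdm2 when ribosome assembly fails, fell by 0.55 and 0.75. Rps3, Rps14 and Rpl13a fell by 0.43, 0.57 and 0.52, and the IDs of Rps27a, a fusion of ubiquitin and a subunit, by 0.80 and 0.67. All of these passed the test, with adjusted p of at most 0.0103.

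The members with the smallest differences included a partner and a relative of subunits as well as subunits themselves. Rps19bp1 had 40.8 and 46.5 CPM in OLs and 43.8 and 48.6 CPM in OPCs, so the stages overlapped (log2 fold change -0.10, SE 0.11, adjusted p 0.483). Rpl7l1 had 76.7 and 76.8 CPM in OLs against 88.7 and 90.6 CPM in OPCs, and its log2 fold change of -0.24 passed the test (adjusted p 0.0354). Paralogs did not all differ little. Rpl22l1, the paralog of Rpl22, fell by 0.61, close to the members' median of -0.64. The 3 IDs of Rpl36al fell by 0.87, 0.74 and 0.30, on both sides of that median. Of the 8 members that did not pass, 5 were low members. The other 3 were Rps19bp1, Rpl41, whose log2 fold change was -0.25 (adjusted p 0.110), and the ID ENSRNOG00000048523 of Rpl8, at -0.22 (adjusted p 0.258). Summed over both IDs, Rpl8 fell by 0.60 (adjusted p 0.00225).

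**Figure D3:**
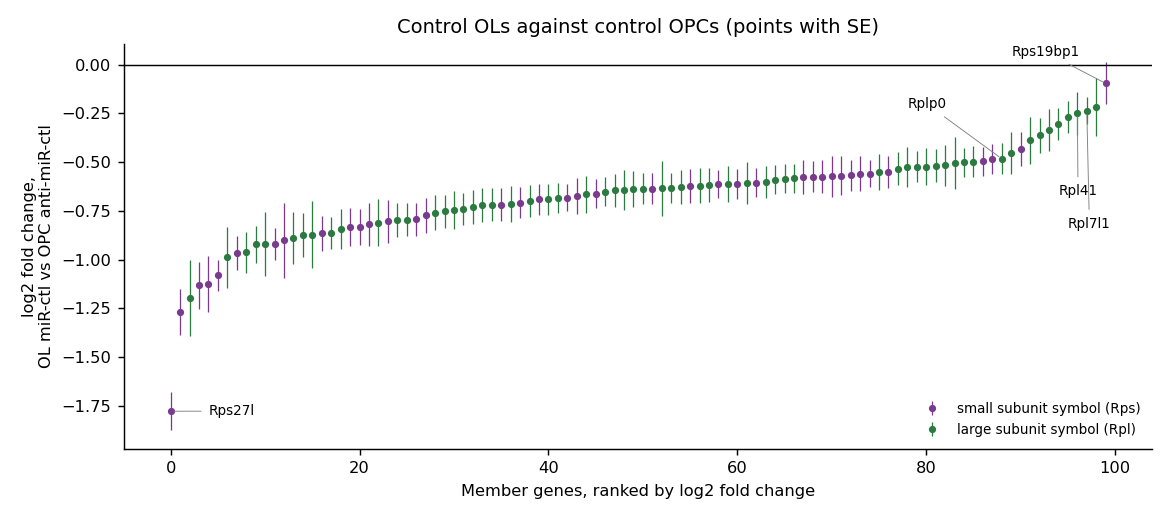
Log2 fold changes of the 100 members with a mean of at least 10 CPM in OL miR-ctl against OPC anti-miR-ctl, ranked, with the SE as bars and colours for the subunit in the symbol. All 100 lie below 0, from -1.78 for Rps27l to -0.10 for Rps19bp1, and 97 of them passed the test.

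The low paralogs could be followed only at a few counts. Rps4y2, a relative of Rps4x that RefSeq places on chromosome 4, had 0.377 and 0.705 CPM in OLs and 3.51 and 2.79 CPM in OPCs, and fell by 2.57 on the log2 scale (adjusted p 0.00317). Rpl10l, a relative of Rpl10 known from testis, had 1.91 ± 0.464 CPM (SD, n = 2) in OLs and 5.23 ± 0.0450 CPM in OPCs, with no overlap, and fell by 1.47 (adjusted p 0.00445). Rpl39l lay between 0.153 and 0.828 CPM in all libraries.

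The genes outside the naming rule moved the same way in this comparison. Rpsa fell by 0.33 (adjusted p 0.0183) and the abundant ID of Rack1 by 0.74 (adjusted p 0.00104). A second ID of Rack1 had 10.5 and 13.6 CPM in OPC anti-miR-ctl and at most 0.151 CPM in each of the other 8 libraries.

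Other parts of the translation machinery were counted from lists chosen by name, beside 28.7% of all genes tested called lower and 28.8% called higher. Of 39 ribosome biogenesis genes tested, 25 fell and 1 rose, with a median log2 fold change of -0.39. Nop58, a core protein of box C/D snoRNPs, fell by 1.08 and Dkc1, the pseudouridine synthase of box H/ACA snoRNPs, by 0.67. Of 13 RNA polymerase I genes 5 fell, and of 11 elongation and termination genes 6 fell and 1 rose. Eef1b2, an exchange factor for elongation factor 1A, fell by 1.02, while Eif5a2, a paralog of Eif5a, rose by 1.40. Of 18 further TOP mRNAs tested that do not encode subunits, 12 fell and none rose, with a median of -0.38. Of 40 initiation factor genes 9 fell and 5 rose, and of 20 cytosolic aminoacyl-tRNA synthetases 4 fell and 2 rose, in both lists below the shares over all genes. Of 14 mTORC1, S6 kinase and Larp1 genes, 5 fell and 1 rose.

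The proteins of the mitochondrial ribosome gave other counts. Of 75 tested, 15 rose and 15 fell, and their median log2 fold change was 0.02. Mrpl3 rose by 0.99 and Mrpl34 by 0.77, while Mrpl14 fell by 0.69. All 13 proliferation genes tested fell, with a median of -3.49, and their summed level was 270 to 346 CPM in OL miR-ctl against 2190 to 2328 CPM in OPC anti-miR-ctl. The part of dividing cells in the members' difference was not tested.

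In OPCs the miR-145 inhibitor went with higher levels of ribosomal protein mRNAs. Against OPC anti-miR-ctl, 38 of the 110 members rose in OPC anti-miR-145 and none fell (edgeR, adjusted p under 0.05). Over the 15496 genes tested, 12.1% were called higher, 16.0% lower and 28.1% in either direction. No member was lower at an unadjusted p under 0.05. The log2 fold change was positive in 104 members, and its median was 0.36 (interquartile range 0.28 to 0.45), against 0.00451 over all genes tested. It was 0.38 for small subunit and 0.34 for large subunit symbols, with 16 of 45 and 22 of 65 called. Both inhibitor libraries lay above both controls in 92 members and below them in 2, where 35.9% of all genes tested were higher without overlap.

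This count of calls rested on each library. In the 100 members of at least 10 CPM, replicate 1 of OPC anti-miR-145 was above replicate 2 in 99, with a median log2 ratio of 0.27, and replicate 1 of OPC anti-miR-ctl was above replicate 2 in 9, with a median of -0.11. Without OPC anti-miR-ctl replicate 1, 5 members rose, and without its replicate 2, 6 rose and 1 fell. Without OPC anti-miR-145 replicate 2, 98 rose and 1 fell, and the members' median was 0.49, while without replicate 1 the median was 0.19 with 48 called higher and 3 lower. With library totals alone 22 members rose and the share of all calls that were higher went from 43.1% to 32.6%. DESeq2 called 66 members higher.

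Rps2, near the entry of the mRNA channel, had the smallest p among the members. It had 1479 and 1255 CPM in OPC anti-miR-145 and 902 and 846 CPM in OPC anti-miR-ctl. The groups were well apart, and it rose by 0.63 on the log2 scale (SE 0.11, adjusted p 0.00595). Rps3a had 895 and 763 CPM against 581 in both controls and rose by 0.50 (adjusted p 0.0131). Rpl10 had 1140 and 989 CPM against 745 and 774 CPM and rose by 0.47 (adjusted p 0.0144). The Rps20 ID ENSRNOG00000008555 had 264 and 272 CPM against 205 and 197 CPM and rose by 0.40 (adjusted p 0.00945). In each of these genes both inhibitor libraries lay above both controls.

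Among members chosen for their roles, Rplp0, Rps3 and Rpl13a rose, by 0.36, 0.41 and 0.42. Rpl5 had a log2 fold change of 0.37 with an adjusted p of 0.0503, just outside the threshold. The values were 0.34 for Rplp1, 0.40 for Rplp2, 0.28 for Rpl11, 0.32 for Rps14, 0.34 and 0.41 for the IDs of Rps6, and 0.23 and 0.28 for those of Rps27a, none of which passed. The group ranges of all of these genes lay apart, with the inhibitor libraries higher.

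The lowest values among members of at least 10 CPM came from subunit genes as well as from paralogs and partners. The ID ENSRNOG00000033803 of Rpl37 was at -0.002 and the ID ENSRNOG00000026716 of Rpl9 at 0.01. The Rps20 ID ENSRNOG00000030345 was at 0.05 and Rpl26 at 0.18. Rpl7l1 had 95.5 and 91.1 CPM against 88.7 and 90.6 CPM, a log2 fold change of 0.04, which turned to -0.03 with library totals alone. Rps27l had 261 and 223 CPM against 208 and 229 CPM, so its groups overlapped, with a log2 fold change of 0.13. Rps19bp1 was at 0.22, and Rpl22l1, at 0.29, lay within the members' interquartile range of 0.28 to 0.45. Neither passed the threshold. The ID ENSRNOG00000052207 of Rps15al4 was at -0.02. The signs of Rpl7l1, Rps27l and this Rps15al4 ID turned when single libraries were left out. The groups of the Rpl37, Rpl9 and Rps20 IDs above overlapped as well, so their signs near 0 also rest on single libraries. That Rps20 ID, for example, had 88.4 and 28.9 CPM against 45.8 and 67.2 CPM. Among low members, the Rps29 ID ENSRNOG00000029443 had at most 0.345 CPM in any library and the largest log2 fold change of all members. It was at 3.00 (adjusted p 0.0325) and was among the 38 calls, of which 37 came from members of at least 10 CPM. The low members Rps4y2 and Rpl10l were at -0.61 (adjusted p 0.142) and -0.39 (adjusted p 0.147).

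**Figure D4:**
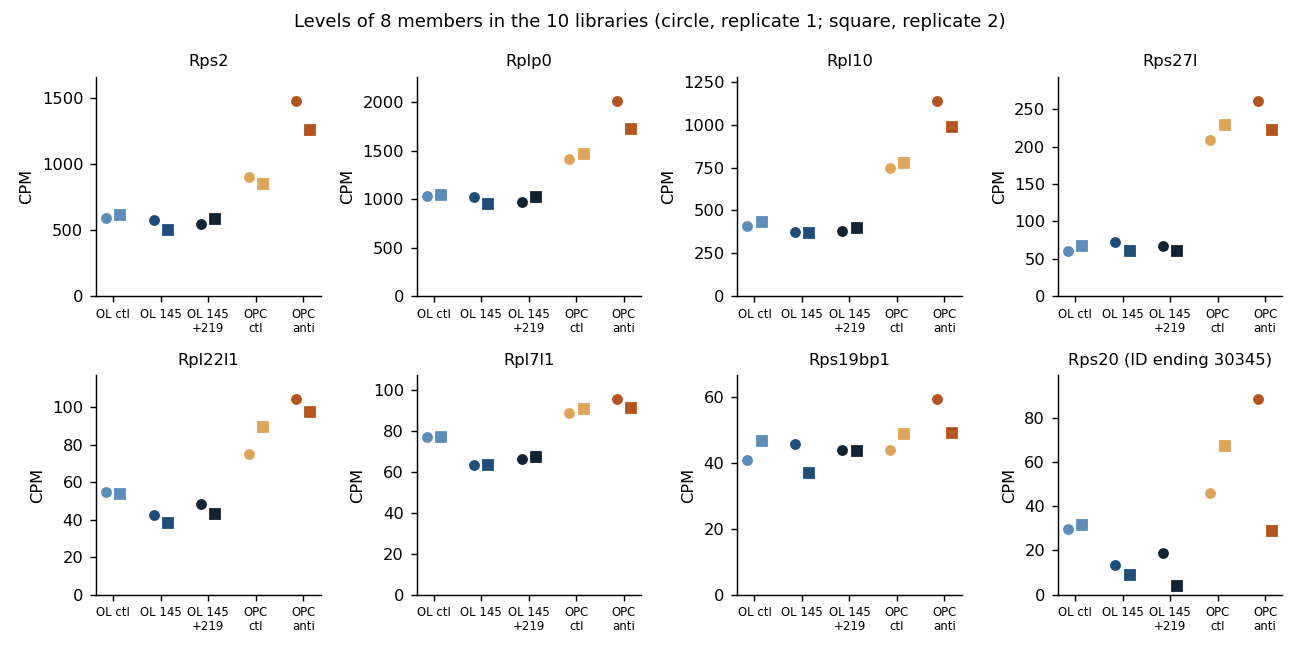
CPM of 8 members in each of the 10 libraries, in 5 groups (axis labels drop the prefix miR, and OPC ctl and OPC anti stand for OPC anti-miR-ctl and OPC anti-miR-145; circles, replicate 1; squares, replicate 2; axes from 0). Rps2, Rplp0 and Rpl10 are highest with the inhibitor and lower in OLs, Rps19bp1 overlaps between control OLs and control OPCs, and the Rps20 ID ENSRNOG00000030345 differs between replicates.

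Outside the rule, Rpsa had a log2 fold change of 0.36 (adjusted p 0.0608), and the abundant ID of Rack1 rose by 0.42 (adjusted p 0.0235). The second ID of Rack1 fell to at most 0.151 CPM, from 10.5 and 13.6 CPM.

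Elongation factors were called with the members in OPCs. Of 11 elongation and termination genes 4 rose and 1 fell, and those with the smallest p were Eef2, which moves the ribosome along the mRNA and rose by 0.49, Eef1a1, which delivers tRNAs and rose by 0.43, Eif5a, which rose by 0.47, and Eef1g, which rose by 0.40. Of 18 further TOP mRNAs 5 rose and 1 fell (median 0.26), some of which are elongation factors. Of 39 ribosome biogenesis genes 8 rose and 1 fell (median 0.17), with Nat10, an RNA acetyltransferase, at 0.56 and Bop1, of the PeBoW complex, at 0.55. Of 13 RNA polymerase I genes 1 rose, Polr1d, by 0.56. Of 14 mTORC1, S6 kinase and Larp1 genes 3 rose and none fell. They were Myc, a transcription factor that acts on ribosome genes, by 0.66, Akt1s1, a subunit that restrains mTORC1, by 0.79, and Rptor, by 0.32. Of 75 mitochondrial ribosomal proteins 11 rose (median 0.20), of 40 initiation factors 5 rose (median 0.13), and of 20 aminoacyl-tRNA synthetases 2 rose (median 0.16), with none falling in these 3 lists. Over all genes tested 12.1% were called higher and 16.0% lower, and the counts of risen genes in these 3 lists and in RNA polymerase I lay near the first share.

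Proliferation genes moved the other way from the members here. All 13 tested fell with the inhibitor, with a median log2 fold change of -1.34, and Cdk1, the kinase that drives mitosis, fell by 1.49. Their summed level was 854 to 976 CPM in OPC anti-miR-145 and 2190 to 2328 CPM in OPC anti-miR-ctl. Higher ribosomal protein levels thus stood beside lower proliferation genes within OPCs, while both were lower in control OLs than in control OPCs. OPC markers summed to 3612 to 4652 CPM with the inhibitor and 3754 to 3834 CPM without, and OL markers to 1100 to 1108 CPM and 1232 to 1312 CPM. Astrocyte markers summed to 482 to 528 CPM with the inhibitor and 772 to 794 CPM without, and 1 of the 9 tested rose while 5 fell. The 8 fibroblast and mural markers found of 11 summed to 363 to 433 CPM and 571 to 580 CPM, and of the 6 tested 2 fell and none rose. That list names Cspg4, which is also an OPC marker here, so its sum cannot be read as fibroblast and mural cells alone. Of the 14 microglial markers tested 9 rose with the inhibitor and 4 fell, with a median log2 fold change of 0.61, and of the 8 neuronal markers tested 4 rose and none fell, with a median of 0.47. The neuronal markers summed to 629 to 767 CPM with the inhibitor and 604 to 631 CPM without. The part of these cells in the members' values was not tested.

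In OLs the miR-145 mimic gave no call. Against OL miR-ctl, edgeR called 0.0% of the 15461 genes tested (0 genes), and 13.4% had an unadjusted p under 0.05, while DESeq2 called 649 genes. Of 107 members tested none was called by edgeR, 5 were lower at an unadjusted p under 0.05 and none was higher. DESeq2 called 1 member lower, the ID ENSRNOG00000030345 of Rps20. The direction was nevertheless shared, with 99 of 107 members below 0 and a median log2 fold change of -0.18 (interquartile range -0.25 to -0.11), against -0.01 over all genes. Both mimic libraries lay below both controls in 72 members and above them in 2, and below them in 24.4% of all genes tested. The median was -0.18 for small and for large subunit symbols.

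A difference of this size was close to the difference between replicates. In the 100 members of at least 10 CPM, replicate 1 of OL miR-145 was above replicate 2 in 95, with a median log2 ratio of 0.19, while in OL miR-ctl the median ratio was -0.00339 and 47 were higher in replicate 1. Without OL miR-145 replicate 2 the members' median was -0.10, and without replicate 1 it was -0.27. The median SE of a member's log2 fold change was 0.13.

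Rpl22l1, which followed that Rps20 ID in order of p, had 42.6 and 38.1 CPM in OL miR-145 and 54.8 and 53.7 CPM in OL miR-ctl. Both mimic libraries lay below both controls, and the log2 fold change was -0.42 (SE 0.11, adjusted p 0.230). The ID ENSRNOG00000007663 of Rps6 had 147 and 114 CPM against 173 and 174 CPM, a log2 fold change of -0.40 (adjusted p 0.350), and the other ID of Rps6 was at -0.28. Rpl7l1 had 63.4 and 63.3 CPM against 76.7 and 76.8 CPM, a log2 fold change of -0.27. Rpl24 had 204 and 180 CPM against 234 and 243 CPM, a log2 fold change of -0.31. The Rps20 ID was at -1.45 (adjusted p 0.158), but Rps20 summed over its 3 IDs was at -0.16 (adjusted p 0.599).

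The stalk proteins were near 0, at -0.07 (Rplp0), 0.03 (Rplp1) and -0.04 (Rplp2), and the signs of Rplp1 and Rplp2 turned when single libraries were left out. Rpl5 was at -0.24 and Rpl11 at -0.18. Rps27l was at 0.06 and Rps19bp1 at -0.07, both with overlapping groups and a sign that depended on 1 library. The ID ENSRNOG00000016220 of Rpl12 was at 0.13, the highest value among members of at least 10 CPM. Rpsa was at -0.17 and Rack1 at -0.10.

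The lists gave no edgeR call in this comparison. Their medians were -0.11 for ribosome biogenesis, -0.13 for RNA polymerase I, -0.12 for further TOP mRNAs, -0.09 for initiation factors, -0.08 for elongation and termination, and 0.03 for the mitochondrial ribosome. All 17 further TOP mRNAs tested were below 0, and 46 of 75 mitochondrial ribosomal proteins were above 0. Markers of some other cells were higher with the mimic and those of others were not, with no edgeR call. Of the 4 endothelial markers tested 3 were below 0 (median -0.62), as were 4 of the 8 neuronal (median -0.18) and 3 of the 5 OPC markers (median -0.39). The log2 fold change was positive for all 10 astrocyte markers (median 0.87), all 14 microglial markers (median 0.69) and 6 of the 7 fibroblast and mural markers tested (median 1.15), and 6 of the 8 OL markers were below 0 (median -0.24). Their part in the members' values was not tested.

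**Figure D5:**
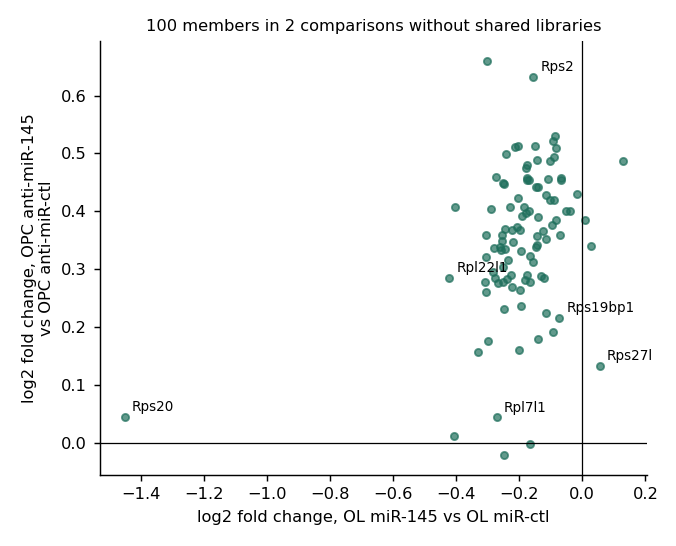
Log2 fold changes of the 100 members of at least 10 CPM with the miR-145 mimic in OLs (horizontal) and with the miR-145 inhibitor in OPCs (vertical), from comparisons that share no library. In 94 members the first is negative and the second positive (r 0.35 across members), and none was called by edgeR in the OL comparison.

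The mimic and the inhibitor were given to cells of different stages and read at different times, so their values stand side by side. In 94 of the 100 members of at least 10 CPM the log2 fold change was negative with the mimic in OLs and positive with the inhibitor in OPCs, as it was for 27.7% of the 14852 genes tested in both. Since 96 of the 100 were negative in the first comparison and 98 positive in the second, the count follows closely from the counts of each comparison alone. Across the 100 members the log2 fold changes of the comparisons were correlated positively (Pearson's r 0.35, Spearman's rho 0.33), so members with the more negative values under the mimic tended to have the smaller positive values under the inhibitor. This is a description over genes that share their libraries. Rpl22l1, for example, was at -0.42 and 0.29, and Rpl7l1 at -0.27 and 0.04.

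With both mimics the members' values were smaller still. Against OL miR-ctl, edgeR called 0.0% of 15436 genes (0 genes) and 6.19% had an unadjusted p under 0.05, while DESeq2 called 106 genes, none of them a member. Of 108 members tested 93 were below 0, with a median of -0.09 against 0.00134 over all genes, and 65 were lower without overlap, which was the case for 19.5% of all genes. At an unadjusted p under 0.05, 3 members were lower and 1 was higher. The Rps6 ID ENSRNOG00000007663 had 147 and 140 CPM against 173 and 174 CPM (log2 fold change -0.27, adjusted p 0.801). An ID of Rpl35al1, ENSRNOG00000032303, was at -0.29, an ID of Rpl9, ENSRNOG00000028449, at -0.29, Rpl22l1 at -0.24, and an ID of Rpl32, ENSRNOG00000032605, at -0.21. The same Rpl12 ID as above was at 0.20. This comparison shares its control libraries with the preceding one.

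Adding miR-219 to miR-145 gave the smallest difference. Between OL miR-145+miR-219 and OL miR-145, edgeR called 0.0% of 15501 genes (0 genes), 1.47% had an unadjusted p under 0.05, and DESeq2 called 9 genes. No member among 107 had an unadjusted p under 0.05. Their median was 0.08 against -0.00284 over all genes, with 90 above 0, and 30 were higher without overlap, the case for 13.2% of all genes. Rps6, at its ID ENSRNOG00000049025, and Rpl22l1 were at 0.15 and 0.17. Without OL miR-145 replicate 2 the members' median was 0.0066, and without replicate 1 it was 0.17. All 8 OL markers were above 0 (median 0.30), and all 10 astrocyte markers (median -0.31) and all 14 microglial markers (median -0.45) were below 0, with no edgeR call, and their part in the members' values was not tested.

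Members with and without the pyrimidine run at the annotated start had similar medians in these comparisons. Among symbols with 1 gene ID and a RefSeq start, the 18 members with the pyrimidine run had a median log2 fold change of -0.63 between control OLs and control OPCs, and the 36 without had -0.62. With the inhibitor in OPCs the medians were 0.36 and 0.37, and with the miR-145 mimic in OLs -0.17 and -0.18. Of member starts, 32.3% held the run at the annotated base and 58.5% held one within 5 bases of it. The set without the run can thus hold TOP mRNAs, and similar medians cannot decide whether the tract goes with the fold changes. In control OLs against control OPCs the 18 members with the run ranged from -0.86 to -0.45. The 36 without it ranged from -2.57 (Rps4y2, a low member) to -0.10 (Rps19bp1, which is not a subunit). Such ranges depend on the number of members and on these genes, so they do not compare the spread of both sets. Rplp0, Rpl10, Rpl22 and Rps27, whose windows are printed above, belong to the first set and Rpl22l1, Rpl7l1 and Rps19bp1 to the second. These are mRNA levels, and translation, on which TOP tracts are known to act, was not measured.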

How the data were processed

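Poly(A) RNA of 10 libraries, 2 for each of 5 groups taken from titles and descriptions, was quantified by the authors with Salmon 0.12.0 on GENCODE Rnor6.0 transcripts. Estimated counts, summed to 23487 genes through tximport and not normalized, were deposited. From a deposited table of the authors' own DESeq2 comparison only gene IDs, symbols and biotypes were used, while its fold changes and p-values were left out. Between 16.0% and 17.5% of a library's values were not whole, and counts were rounded. Depth limits only genes of few counts. The pair of libraries per group limits all comparisons.

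Each comparison was fitted on its own 4 libraries with R 4.3.3 and edgeR 4.0.16 (TMM, estimateDisp, glmQLFit, glmQLFTest, two-sided) on genes that reached 5 counts in 2 or more of them, adjusted over all genes tested by Benjamini-Hochberg and called under 0.05. The SE is the log2 fold change divided by the square root of F. The fits were tested on simulated counts. Alternatives were DESeq2 1.42.0, other scales and filters, a single fit, a replicate block and leaving out each library. The members and lists were chosen with earlier results of these data known. Named genes are the 5 members with the smallest p in each direction, those of extreme level or fold change, those chosen for roles, and up to 4 genes of a list. Of these, members that are not given singly are described by ranges, and some are not reported here.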

Additional observations from a re-analysis of the deposited data

How the results depend on the processing

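In OL miR-145 against OL miR-ctl, DESeq2 called 649 genes and 1 member, a single fit of all libraries 79 genes, and the replicate block 2272 genes and 4 members (Rps20, Rps6, Rpl9 and Rpl22l1 IDs, all lower). With both mimics against OL miR-ctl DESeq2 called 106 genes, no filter on low counts 1 and the replicate block 132, and for added miR-219 DESeq2 called 9 and the replicate block 184. Nothing in the labels says that a replicate number marks a shared culture, and deviations of same-numbered libraries correlated at 0.404, 0.468, 0.631, -0.152 and 0.0668 in the order of the 3 OL comparisons, OPCs and stages. In OPCs the members called were 66 with DESeq2, 22 with library totals alone and 31 with the replicate block (38 without), and a single fit called 2655 genes. Crossing the replicate numbers there, chosen after seeing the data, gave 5536 genes and 91 members. Leaving out single libraries gave 2433 to 7130 genes and 5 to 99 members in OPCs with medians from 0.19 to 0.49, and 5016 to 10591 genes with medians from -0.69 to -0.62 between stages, where library totals alone gave a median of -0.77. Restricting the share to a core list of subunits gave 2.27% in OL miR-145+miR-219 and 2.45% in OL miR-ctl. Log2 fold changes whose sign turned without a library ranged in OL miR-145 from -0.076 to 0.12 (Rplp1), -0.089 to 0.19 (Rps27l), -0.14 to 0.056 (Rplp2) and -0.23 to 0.070 (Rps19bp1), and in OPCs from -0.0026 to 0.26 (Rps27l), -0.0052 to 0.092 (Rpl7l1) and -0.21 to 0.15 (the Rps15al4 ID), and Rpl7l1 was at -0.029 there with library totals alone. The Rpl37, Rpl9 and Rps20 IDs near 0 in OPCs had overlapping groups, so their signs rest on single libraries as well. Of 912 alternative values of named members 823 kept direction and side of the threshold, 33 lost a call, 43 gained one and 13 turned. The causes were not tested. The members' medians kept their sign in all 5 comparisons under every alternative run, including those added after seeing the data (members summed by symbol, and members of at least 10 CPM).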
